A study of Rattus norvegicus with 4 samples.

Results

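The levels of 10 genes of the Wnt and Notch pathways were followed in rat myometrium, the muscular layer of the uterine wall: the Wnt ligands Wnt4 and Wnt5a, the Wnt receptors Fzd1 and Fzd2, the Wnt signal carrier Ctnnb1, the receptors Notch1 and Notch2, their ligands Jag1 and Jag2, and the Notch target Hes1. Members were all probe sets that the platform annotation assigns to exactly 1 of these symbols. This gave 12 probe sets of 7 genes, out of 4736 genes and 8740 probe sets, array controls left out. Wnt4, Wnt5a and Ctnnb1 had no probe set under this rule and are not analysed here. The rule itself goes by gene symbol and uses no measured value, though the genes were put on the list with earlier results of these data known.

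Wnt proteins are secreted lipid-modified ligands that bind Frizzled receptors at the cell surface. In the canonical branch this stops the destruction of beta-catenin, the product of Ctnnb1, which then enters the nucleus and works with TCF/LEF factors. Notch receptors are bound by Jagged or Delta-like ligands on a neighbouring cell, are cut by proteases, and release an intracellular part that joins the DNA-binding protein RBPJ to activate genes of the Hes and Hey families. In the uterus Wnt signals are known for their part in shaping stroma, glands and muscle, and Notch signalling is known in vessels, epithelium and stroma.

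The rats were 60 days old and had been ovariectomised a week before treatment, controls included. They received estradiol benzoate, a slowly released ester of estradiol, under the skin in a dose of 10 µg/kg, or vehicle, and the uterine horns were collected 6 or 24 h later. Each of the 4 groups is 1 Affymetrix rat oligonucleotide array that carried labelled RNA pooled from the myometrium of 6 animals, so no group has replicate error, animals within a pool cannot be told apart, and a difference within a time compares 2 pools. Fewer cells of a type and less RNA per cell cannot be told apart in such pools.

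Median signals of the 4 arrays lay between 144 and 169 intensity units and their floors between 89.5 and 108, the floor being the 40th percentile of each array, below which a signal is treated as dim. As a check of the labels, the uterine estrogen targets Hsd11b2, S100g, Pgr and Igf1 were all more than 2-fold higher with estradiol at 24 h and more than 2-fold lower on the array labelled estradiol at 6 h. The 6 h labels are thus contradicted by these targets, and each 6 h direction is that of the libraries labelled estradiol and control. Each time had its own scan day, shared by its 2 arrays, so effects of time and of scan day cannot be told apart. The wash record of the 24 h control array ended with a communication error. All 10 smooth muscle markers found on the array, among them Acta2, Myh11 and Des, were above the floor on every array, and their summed signal ran from 81713 to 117248.

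The promoters of 3 genes described below are printed. They are Hes1, a Notch target whose signals stayed within a narrow range, Notch1, the member with a probe set past 2-fold at 24 h, and Fzd1, the member with the largest difference at 6 h. Each is the 250 bases before the annotated start in RefSeq's rat assembly GRCr8, 5′ to 3′ on the gene's strand. Capitals mark the RBPJ core TGGGAA in Hes1 and the GC box GGGCGG, bound by Sp1-type factors, in Notch1; Fzd1 held neither.
Hes1, chr11:84213046-84213295, minus strand: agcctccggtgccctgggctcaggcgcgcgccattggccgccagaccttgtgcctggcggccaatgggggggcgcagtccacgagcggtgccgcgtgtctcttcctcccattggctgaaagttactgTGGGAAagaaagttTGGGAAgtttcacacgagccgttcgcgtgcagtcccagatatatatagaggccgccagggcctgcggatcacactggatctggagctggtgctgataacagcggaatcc
Notch1, chr3:29721614-29721863, minus strand: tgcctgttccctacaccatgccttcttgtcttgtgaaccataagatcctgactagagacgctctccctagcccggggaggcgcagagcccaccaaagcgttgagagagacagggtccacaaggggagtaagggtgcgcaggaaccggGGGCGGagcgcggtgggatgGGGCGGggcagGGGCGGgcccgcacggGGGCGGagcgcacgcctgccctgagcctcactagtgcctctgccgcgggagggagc
Fzd1, chr4:30264824-30265073, plus strand: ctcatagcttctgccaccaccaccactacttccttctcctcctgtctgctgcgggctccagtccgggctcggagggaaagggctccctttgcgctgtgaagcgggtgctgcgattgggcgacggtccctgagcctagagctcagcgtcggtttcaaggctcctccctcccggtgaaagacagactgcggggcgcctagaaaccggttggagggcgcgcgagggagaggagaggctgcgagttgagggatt

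Of the 7 probed genes, 6 had a promoter entry, and Fzd2 is named only. Searched on both strands, TGGGAA occurred 2 times in the Hes1 window, with first bases 123 and 109 bases before the start and both on the gene's strand, and 0 times in the windows of the other 5 probed genes. Over all 33469 promoter entries 22.1% held it in the same window. The GC box occurred 4 times in the Notch1 window and 3 times in that of Notch2, and 2 and 5 times in the 2 entries of Jag2, against 30.5% of all entries with at least 1. The TCF/LEF core CTTTGA, held by 13.9% of entries, and the core GGTCA of the estrogen response element, held by 35.4%, were not in the windows of the probed members. These matches describe letters in a short window.

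Among the members, 9 probe sets of 6 genes were above the floor on all 4 arrays and 3 were below it on all 4. The plot of signals by array shows both kinds. Notch2, a Notch receptor, was among the dim ones, with signals of 66.5 on the 6 h control, 27.3 on the 6 h array labelled estradiol, 85.8 on the 24 h control and 49.0 with estradiol at 24 h, so its level has no order here. The other dim pair belongs to Jag2, whose probe sets U70049cds_at and U70049cds_g_at reached at most 28.2 on any array while its other 2 probe sets were bright.

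**Figure D1:**
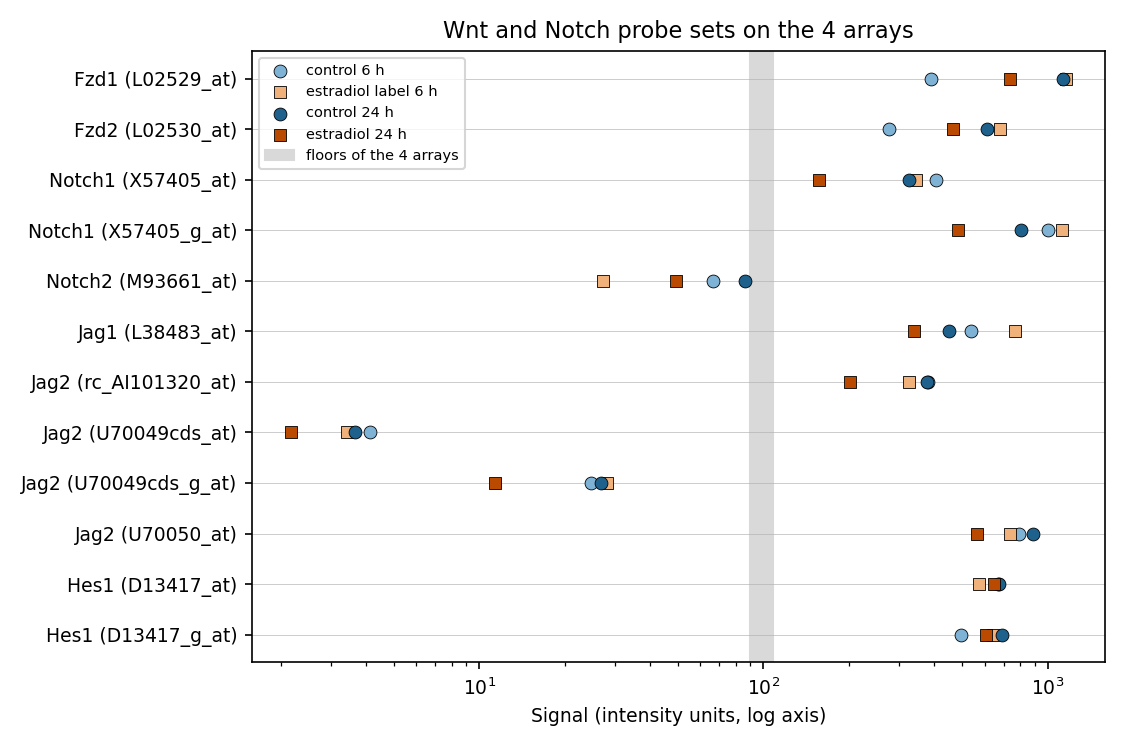
Signals of the 12 probe sets of Wnt and Notch genes (intensity units, log axis), 1 point per array, with the range of the 4 floors (89.5 to 108) shaded. The Fzd1 and Fzd2 points of the 6 h control lie apart on the left, the Notch1 points of estradiol at 24 h do so too, and the Hes1 points lie close together.

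With estradiol at 24 h the Notch receptor and ligand genes read lower than in the control. Of 12 member probe sets 1 passed the 2-fold rule, Notch1 X57405_at, a share near that of all probe sets given below. All 9 member probe sets above the floor read lower with estradiol, from 1.04-fold for Hes1 to 2.07-fold for Notch1. Their median log2 difference was -0.62. Of all probe sets above the floor on at least 1 array, 8.36% were at least 2-fold lower at 24 h and 8.3% at least 2-fold higher, and the median over them was -0.17, a value set by the floors of the pair, whose log2 ratio it equals. Of the 4719 probe sets above the floor on both 24 h arrays, 60.6% read lower with estradiol by any amount. With arrays scaled to a common median that share was 52.0%, the median over all probe sets moved to -0.03, and 8 of 9 members read lower, the exception being Hes1 D13417_at. The same scaling moved the split of 2-fold calls over all probe sets from 511 higher and 515 lower to 630 and 368.

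At 6 h the Frizzled receptors stood out instead: 2 member probe sets, Fzd1 and Fzd2, were at least 2-fold higher on the array labelled estradiol and 0 were lower. The background at 6 h was 6.94% of probe sets higher and 5.38% lower. Of the 9 bright member probe sets 5 read higher and 4 lower, with a median log2 difference of 0.16 against -0.07 over all probe sets above the floor.

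**Figure D2:**
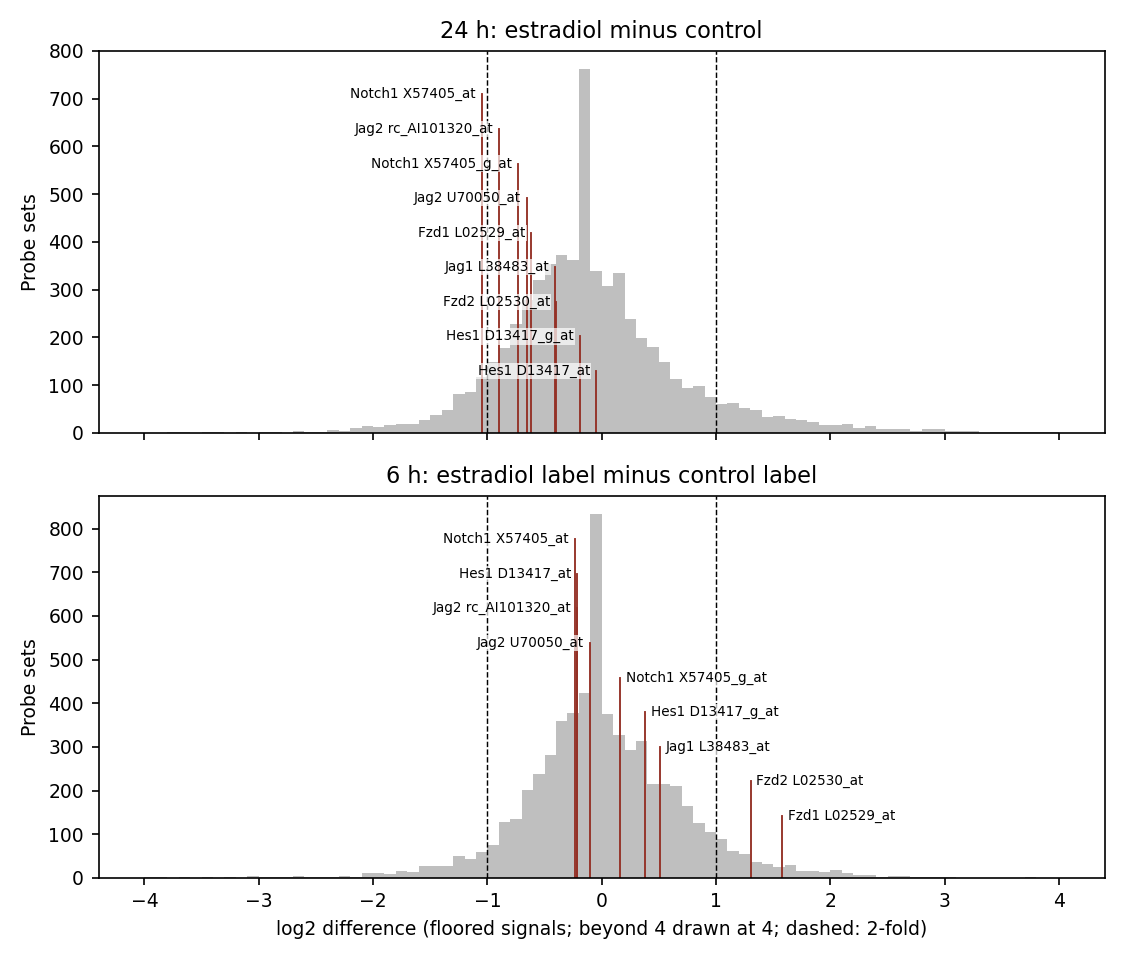
Histograms of the log2 difference between estradiol label and control label at 24 h (top) and 6 h (bottom) over the 6157 probe sets above the floor on at least 1 array, in probe sets per bin, with red lines at the 9 bright Wnt and Notch probe sets and dashed lines at 2-fold. At 24 h all 9 lines lie below 0 and Notch1 X57405_at passes the lower dashed line, while at 6 h Fzd1 and Fzd2 lie past the upper one.

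Fzd1, a seven-pass receptor for Wnt ligands, had signals of 389.6 on the 6 h control, 1162 on the 6 h array labelled estradiol, 1130 on the 24 h control and 738 with estradiol at 24 h. The 6 h control was low, the estradiol array at 24 h lay between, and the remaining pair read nearly alike. Fzd1 was thus 2.98-fold higher with the estradiol label at 6 h, a log2 difference of 1.58 above 97.7% of all probe sets above the floor, and 1.53-fold lower with estradiol at 24 h, under the 2-fold rule.

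Fzd2, a close relative of Fzd1 in the same receptor family, had signals of 275.8, 681, 612 and 464 in the same order of arrays. The order of its 4 arrays was the same as for Fzd1. It was 2.47-fold higher with the estradiol label at 6 h and 1.32-fold lower with estradiol at 24 h. Between the controls, Fzd1 was 2.90-fold and Fzd2 2.22-fold higher at 24 h than at 6 h, and they were the only members past the rule there, against a background of 8.43% higher and 9.45% lower. The array labelled estradiol at 6 h was also set against the 24 h control, an alternative chosen after seeing the data. It differed by 0.04 for Fzd1 and 0.15 for Fzd2 on the log2 scale. That pair crosses time and scan day, and both of its arrays were low in the estrogen targets. It therefore cannot tell which 6 h array the 6 h differences rest on.

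The arrays on which the Frizzled genes were dimmer were those on which the estrogen-induced genes were brighter. Igf1, a growth factor, had signals of 7872 on the 6 h control and 5182 with estradiol at 24 h, against 704 on the 6 h array labelled estradiol and 665 on the 24 h control. Pgr, the progesterone receptor, had 2669 and 2143 on the first pair of arrays and 461 and 654 on the second. In both pairs of arrays scanned together, Fzd1 and Fzd2 therefore read lower where Igf1 and Pgr read higher, by less than 2-fold at 24 h and by more than 2-fold at 6 h. With 4 arrays no correlation is given.

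**Figure D3:**
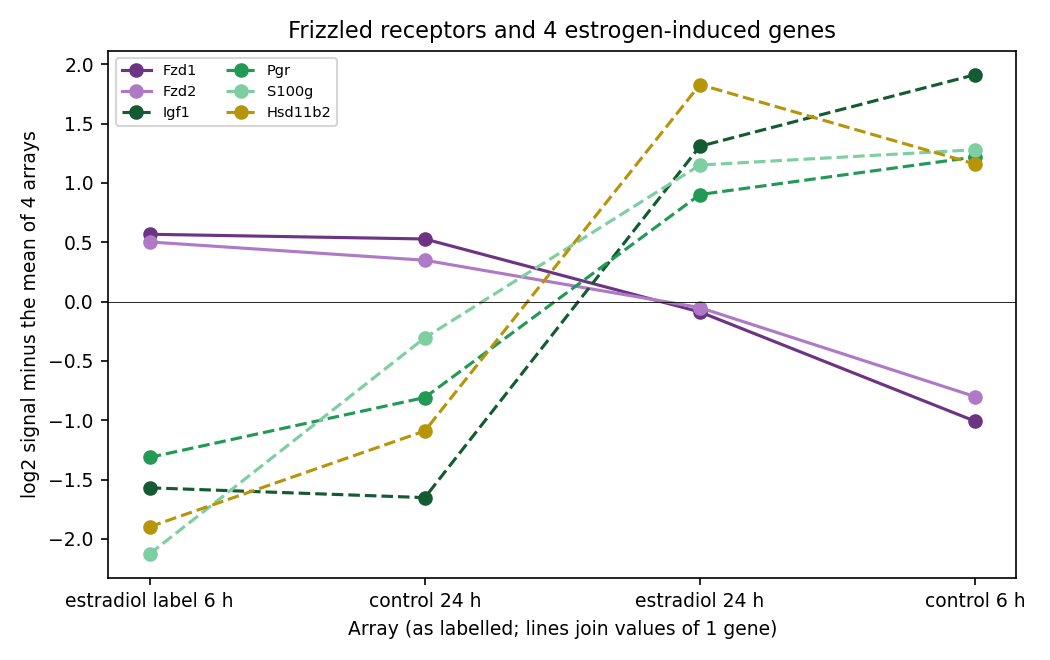
Log2 signal minus the mean of the 4 arrays for Fzd1 and Fzd2 (solid) and for Igf1, Pgr, S100g and Hsd11b2 (dashed) on the 4 arrays as labelled. The arrays are ordered with the 2 that were low in the other 4 genes at the left. The Frizzled genes are above their mean on these and below it on the 2 arrays at the right, by little with estradiol at 24 h.

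Notch1, the receptor for which the pathway's cleavage steps are best known, was read by 2 probe sets named for 1 sequence. On X57405_at the signals were 405.4 on the 6 h control, 344.4 on the 6 h array labelled estradiol, 324.8 on the 24 h control and 156.9 with estradiol at 24 h. On X57405_g_at they were 1006, 1126, 804 and 483. Both were lowest with estradiol at 24 h, while the remaining 3 arrays lay within 1.5-fold of each other. With estradiol at 24 h Notch1 was 2.07-fold lower on X57405_at and 1.66-fold lower on X57405_g_at. The first value is just inside the 2-fold rule, and it left it with arrays scaled to a common median (log2 difference -0.91), with quantile normalization (-0.93), with a floor at the 60th percentile (-0.51) and with a pseudocount of 100 (-0.73). Against the 6 h control, chosen after seeing the data, X57405_g_at differed by -1.06 and passed the rule. At 6 h the 2 probe sets differed in sign, with log2 differences of -0.24 and 0.16.

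Jag1, a Notch ligand with a role in vessels and bile ducts, had signals of 537 on the 6 h control, 766 on the 6 h array labelled estradiol, 449.0 on the 24 h control and 339 with estradiol at 24 h. Both 24 h arrays were below both 6 h arrays. Jag1 was 1.33-fold lower with estradiol at 24 h and 1.42-fold higher with the estradiol label at 6 h, neither past the rule.

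Jag2, the second Jagged ligand, had on its brightest probe set U70050_at signals of 791, 735, 892 and 566 on the 6 h control, the 6 h array labelled estradiol, the 24 h control and the 24 h estradiol array. On rc_AI101320_at these were 378.5, 326.1, 376.6 and 202.4. The estradiol array at 24 h was the lowest on both, and the controls of the 2 times differed by 1.13-fold and 1.01-fold. The differences at 24 h were 1.58-fold and 1.86-fold lower with estradiol, the second being the member value just outside the 2-fold rule.

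Hes1, a transcriptional repressor and a direct target of Notch signalling, had on D13417_at signals of 668 on the 6 h control, 574 on the 6 h array labelled estradiol, 673 on the 24 h control and 649 with estradiol at 24 h. On D13417_g_at these were 496.4, 645, 691 and 606. No array stood apart on both. The largest difference between any 2 arrays was 1.39-fold, between the controls on D13417_g_at, and at 24 h the estradiol array was 1.04-fold and 1.14-fold lower. The gap between these differences and those of Notch1 and Jag2 on the same arrays was not tested.

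Between the 2 arrays labelled estradiol, 3 member probe sets were at least 2-fold lower at 24 h than at 6 h and 0 higher, where the background was 9.29% lower and 5.99% higher. They were X57405_at and X57405_g_at of Notch1, both named for 1 sequence, 2.20-fold and 2.33-fold lower, and Jag1, 2.26-fold lower. All 4 estrogen targets were at least 2-fold higher on the 24 h array of this pair, Igf1 by 7.36-fold and Hsd11b2 by 13.3-fold. The pair therefore cannot be read as 6 h against 24 h of treatment. With arrays scaled to a common median, quantile normalization or a pseudocount of 100, 1 probe set kept this call.

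The fit of both times together is the only test the design allows, with 1 residual degree of freedom and the assumption that treatment acts alike at both times. By limma, 0 of 9 member probe sets passed an adjusted p of 0.05 for treatment or for time, and 0 reached an unadjusted p under 0.05. Over all 6157 probe sets limma also called 0, a background of 0%, and 104 had an unadjusted p under 0.05 for treatment. The treatment estimate was 0.48 ± 0.64 (SE) for Fzd1 and -0.64 ± 0.40 (SE) for Notch1 X57405_at on the log2 scale, both with an adjusted p of 0.999 by limma. Each estimate is the mean of the 24 h and the 6 h difference. For Fzd1 these were -0.62 and 1.58. The second follows the labels that the estrogen targets contradict, so the sign of the Fzd1 estimate rests on those labels. Differences of opposite sign cancel in such a mean: Igf1, an estrogen target, had 2.96 at 24 h and -3.48 at 6 h. The counts of 0 for treatment therefore cannot tell no difference from opposite differences.

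Of 88 other Wnt pathway genes listed, 25 were named on the array and 23 were above the floor on at least 1 array. At 24 h 1 of these was at least 2-fold higher and 3 were lower; the background over 3619 genes, each by its brightest probe set, was 8.68% higher and 8.04% lower. The median log2 difference of the 23 was -0.17, beside -0.17 over all genes. Both lie at the log2 ratio of the floors of the pair, so their likeness is not a result about the Wnt genes. Mmp7, a matrix protease and known beta-catenin target, had at 24 h signals of 872 on the estradiol array and 126.0 on the control, and at 6 h of 147.8 and 128.0. Cd44, an adhesion receptor and known target, was 2.14-fold lower with estradiol at 24 h on its only bright probe set. Gsk3a, a kinase that marks beta-catenin for destruction, was 2.04-fold lower, with 499.6 against 1018. Csnk1d, a casein kinase, was 4.14-fold lower on its brightest probe set, but its other probe set read 554 and 564. Under median scaling and under quantile normalization, 1 of these 3 lower genes, Csnk1d, stayed past the rule, and under median scaling Ccnd1 joined Mmp7 as 2-fold higher.

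At 6 h 2 of the 23 Wnt genes were higher with the estradiol label and 2 lower, where 6.47% and 5.08% of all genes were. Tle1, a co-repressor of TCF/LEF factors that also serves Hes proteins, had signals of 243.3 on the 6 h control, 879.9 on the 6 h array labelled estradiol, 904 on the 24 h control and 493 with estradiol at 24 h. Its 4 arrays stood in nearly the order of the Frizzled genes, with the 24 h control highest. Id2, an inhibitor of helix-loop-helix factors, was 2.88-fold higher with the estradiol label at 6 h. Myc, a growth regulator and target of both pathways, was 2.94-fold lower and Csnk1a1, the casein kinase that primes beta-catenin, 2.64-fold lower.

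Secreted and receptor genes outside the members were few. Sfrp4, a secreted inhibitor that binds Wnt ligands, was 1.62-fold higher with estradiol at 24 h, at 368 against 226.8, and was dim on the 6 h control. Ryk, an atypical Wnt receptor, was 1.53-fold higher, at 905 against 592. Ccnd1, the cyclin that starts the cell cycle and a known Wnt target, read 1594 on the estradiol array and 875 on the control at 24 h, and 911 and 1466 at 6 h, under 2-fold at both times on its brightest probe set. Its probe sets disagreed at 24 h, where X75207_s_at was at least 6.27-fold higher with estradiol, at 633 against a dim 42.7, and rc_AA957218_at 1.17-fold lower. Dimmer probe sets of Csnk2a1 and Tle5 were also past the rule on the higher side at 24 h, by at least 2.14-fold and at least 2.52-fold, as were at 6 h one of Apc, at least 2.15-fold higher, and one of Jun, 2.23-fold lower, while the brightest probe sets of these 4 genes were not. Axin2, a feedback inhibitor and a widely used readout of canonical Wnt signalling, was near or below the floor on all arrays, between 33.1 and 120.6.

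Of 41 other Notch pathway genes listed, 15 were named and 13 were above the floor on at least 1 array; by their brightest probe sets 0 of these passed the 2-fold rule at 24 h or at 6 h. Psen2, a catalytic subunit of the protease that releases the inner part of Notch, was 1.54-fold lower with estradiol at 24 h on that probe set, but 2.40-fold lower and past the rule on its dimmer one, X99267_at, at 118.5 against 284.5. The median log2 difference of the 13 genes was -0.62 at 24 h and 0.15 at 6 h, beside -0.17 and -0.06 over all genes, the -0.17 being the log2 ratio of the floors. At 24 h 10 of the 12 genes above the floor on both arrays read lower with estradiol, and 9 with arrays scaled to a common median. Over all probe sets above the floor on both arrays, 60.6% and 52.0% read lower under these 2 scalings. Dll1, a Delta-like ligand, was 1.84-fold lower, at 237.7 against 438.5, and Dll3, a divergent Delta-like gene, 1.49-fold lower. Both had a further probe set, U78889_at and AF084576_g_at, that was below the floor on all arrays. Adam10 and Adam17, which shed the outer part of Notch, were 1.86-fold and 1.85-fold lower. The 24 h control was their highest array, 2.61-fold and 2.35-fold above the 6 h control. They were the 2 of the 13 genes past the rule between the controls, where 276 of 3619 genes were higher and 348 lower. With estradiol at 24 h they read 207.7 and 138.3. The 6 h control read 147 and 109, and the 6 h array labelled estradiol 163 and 144. Mfng, a sugar transferase that tunes ligand choice, was 1.61-fold lower and Nrarp, a feedback inhibitor of Notch, 1.58-fold lower. Furin, which cuts the Notch precursor, was 1.63-fold higher, and Rbpj, the DNA-binding partner, 1.06-fold higher. Hes3 and Hes5, of the same family as Hes1, were 1.27-fold and 1.52-fold lower. The Hes5 value is that of D12516_at, as D12516_g_at was below the floor on all arrays. Apart from the dimmer Psen2 probe set none of these passed the rule between estradiol and control labels at either time. No spread between replicates exists to set them against.

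**Figure D4:**
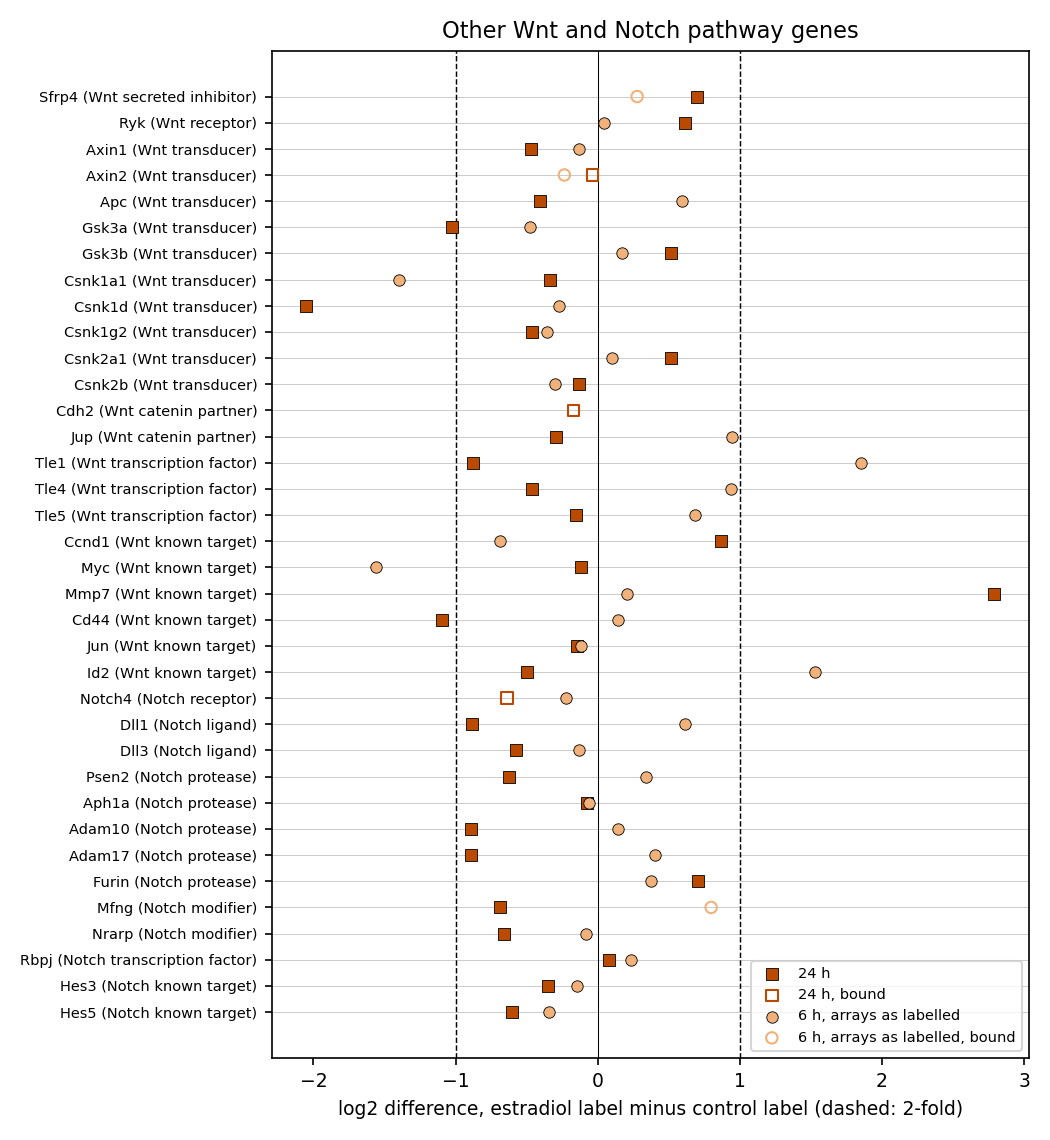
Log2 difference, estradiol label minus control label, at 24 h (squares) and 6 h (circles) for the other Wnt and Notch genes above the floor, with open symbols where 1 array was at its floor and dashed lines at 2-fold. Mmp7 and Csnk1d lie farthest out at 24 h and Tle1 and Myc at 6 h, while the Notch genes, drawn by their brightest probe sets, lie within the dashed lines.

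Markers of other cell types differed between the same arrays. The 4 endothelial markers found, Pecam1, Vwf, Kdr and Flt1, had a summed signal of 1348 in the control and 761 with estradiol at 24 h. All of them read lower there, and Flt1 alone was at least 2-fold lower. At 6 h the sum was 1325 in the control and 1044 on the array labelled estradiol. Kdr alone was lower at 6 h, by 3.83-fold, while Pecam1, Vwf and Flt1 read higher. The median log2 difference of these markers at 6 h was 0.35. The 7 epithelial markers summed to 1303 in the control and 3761 with estradiol at 24 h, with 5 of 7 at least 2-fold higher, and to 1885 and 839 at 6 h, with 3 of 7 lower. The 8 stromal markers summed to 50618 and 51220 at 24 h and to 34721 and 38810 at 6 h. Of these, 2 were at least 2-fold lower at 24 h, Mme by at least 3.66-fold and Vcam1 by at least 2.52-fold, and at 6 h Lum was 2.63-fold higher, while Col1a1, Col3a1 and Dcn make up most of the sum. The 6 leukocyte markers, of which Itgam was below the floor on all arrays, summed to 3129 and 1699 at 24 h and to 2366 and 2041 at 6 h. At 24 h Cd53 and Cd74 were at least 2-fold lower and Coro1a at least 2.53-fold higher, and at 6 h Coro1a was at least 2.04-fold lower. The part of these cell types in the differences of Notch1, Jag1, Jag2, Fzd1 and Fzd2 was not tested.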

How the data were processed

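The deposited intensities of 4 arrays were used, 1 array per group. Per the submitters' processing notes the authors made them with MAS5, which corrects each probe by its mismatch partner before scaling; its version is not given in the sources used here. Each column's trimmed mean (2% off each end) was 500, a scaling the values show. Detection calls were not used here.

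Probe sets were named by the platform table where it gave 1 gene symbol. The arrays were brought to a trimmed mean of 500, signals below an array's 40th percentile were set to it, and log2 was taken (Python 3.11.15, pandas 2.3.3). A 2-fold rule, with the brighter array above its floor, made the calls. For gene lists a gene was its brightest probe set. The fit used limma 3.58.1 in R 4.3.3 (lmFit and eBayes, treatment and time as terms, Benjamini-Hochberg adjustment over 6157 probe sets). Rule and fit were tested on simulated data with the same change at both times. The estrogen targets here do not show that, so the simulation does not cover these data. Named were all members, the other pathway genes past the rule at either time, receptors, ligands and known targets above the floor on all 4 arrays (not each of these is named), 4 genes that check the labels, and the nearest patterns of 3 members. The members and lists were chosen with earlier results of these data known. The number of arrays limits the precision. The alternatives were other scalings, floors and folds, a pseudocount, other controls, probe sets without _s_at or _x_at, averaged probe sets per gene, and for limma no filter on dim probe sets.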

Additional observations from a re-analysis of the deposited data

Results flagged for a closer look

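Several genes read in opposite directions at the 2 times, with at least 1 of the differences past 2-fold. With 1 array per group the difference between the times was not tested, and the estrogen targets contradict the 6 h labels. On the log2 scale, estradiol label minus control label, Fzd1 differed by -0.62 at 24 h and 1.58 at 6 h. Fzd2 differed by -0.40 at 24 h and 1.30 at 6 h. Tle1 differed by -0.87 at 24 h and 1.85 at 6 h, and Id2 by -0.50 and 1.53. Cd44 differed by -1.10 at 24 h and 0.14 at 6 h.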

How the results depend on the processing

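With 1 array per group no replicate could be left out; the limma fit has time, and so scan day, as a block. The 24 h count of 1 lower member probe set became 0 with arrays scaled to a common median, quantile normalization, a floor at the 60th percentile, a pseudocount of 100 or a 3-fold rule, 5 with a 1.5-fold rule and 2 against the 6 h control. Under the 1.5-fold rule 1394 of all 6157 probe sets were lower at 24 h and 911 higher. The 6 h count of 2 higher became 0 with a 3-fold rule, against the mean of both controls and against the 24 h control, and the 6 h count of 0 lower became 1, Notch2, when the floor was set to the 20th percentile. The count of 2 higher between the controls became 1 with a pseudocount of 100 and 0 with a 3-fold rule. The 3 lower between the arrays labelled estradiol became 1 with arrays scaled to a common median, quantile normalization or a pseudocount of 100, 5 with a 1.5-fold rule and 0 with a 3-fold rule. For this comparison the count over all probe sets was not taken under those alternatives. The alternatives against the control of the other time, and those of the last comparison, were chosen after seeing the data. Among the scalings and floors fixed at the start, the sign of a difference under 2-fold changed 11 times, and that of a difference past it 0 times. Most of these changes were of Notch2, U70049cds_at and U70049cds_g_at, which were dim on all arrays. Their difference is only the log2 ratio of the floors, -0.08 at 6 h. The rest were Hes1 D13417_at at 24 h and Jag2 rc_AI101320_at between the controls, at -0.05 and -0.007 in the main setting, and their cause was not tested. For the other pathway genes at 24 h, the count of 3 lower became 1 with arrays scaled to a common median and 1 with quantile normalization, and the count of 1 higher became 2 with the former, both chosen after seeing the data; their 6 h counts kept their size there, and with averaged probe sets the 24 h count of lower genes was 2. The limma count of 0 stayed 0 in its 3 alternatives.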

Other observations

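Some genes outside the pathways had nearly the same pattern over the 4 arrays as a member. Likeness was the root mean square distance between log2 signals centred on each gene's mean, over 2651 genes above the floor on all 4 arrays. For Fzd1 the nearest were Eef2k, the kinase of elongation factor 2, at 0.06, Gyg1, which primes glycogen, at 0.08 and Rilpl2 at 0.12. For Fzd2 they were Kcnh2, a potassium channel, at 0.04, Gyg1 at 0.07 and Mrpl52 at 0.08. For Notch1 X57405_at they were Scn7a, a sodium channel family gene, at 0.04, Rasa2 at 0.05 and Abcc6 at 0.05. Within a distance of 0.2 lay 24 genes for Fzd1, 53 for Fzd2 and 75 for Notch1, so likeness over 4 arrays is not rare. Gyg1 was near both Frizzled genes, with signals of 472 on the 6 h control, 1257 on the 6 h array labelled estradiol, 1205 on the 24 h control and 883 with estradiol at 24 h.

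Jup, the plakoglobin that shares cadherin binding with beta-catenin, had signals of 442, 852, 1141 and 930 in that order of arrays, a 1.93-fold difference at 6 h that stayed under the 2-fold rule.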
